A study of Mus musculus with 2 samples.

Results

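The TRBJ2 cluster is the second set of joining (J) segments of the mouse T cell receptor (TCR) beta locus, Trb, and it lies directly in front of the constant region gene TRBC2. Its chains were chosen by name, as every TCR beta (TRB) contig whose annotated J gene was a TRBJ2 segment. They numbered 2492 of the 4141 TRB chains in the WT library and 3102 of the 5181 TRB chains in the Btla-/- library, and so 5594 of the 9322 TRB chains of the series. The TCR transcripts of single CD4 single-positive (SP) thymocytes had been sequenced with the 10x Genomics V(D)J workflow in 1 library from WT mice, labelled C57BL/6J, and 1 library from Btla-/- mice, labelled C57BL/6-Btla KO. Btla codes for BTLA, an inhibitory receptor of lymphocytes. Both groups were aged 8 to 12 weeks, their CD4 T cells were obtained from thymocyte suspensions by negative selection with a kit for naive CD4 T cells, and the number of mice behind a library is not given. With 1 library per genotype there are no replicates, so no difference between the genotypes was tested. Intervals of shares are exact (Clopper-Pearson) 95% intervals, or Newcombe intervals for a difference between shares, and they cover counting error only. Intervals of a mean CDR3 length, or of a difference between such means, are normal 95% intervals from the SE over chains, and they cover the spread over chains only.

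A TCR beta gene is assembled in developing thymocytes in steps, first by joining a diversity (D) segment to a J segment and then by joining a variable (V) segment to the DJ unit, each joint guided by recombination signal sequences made of a heptamer and a nonamer around a spacer. Bases are removed from the segment ends and others are added before the ends are sealed, and the joint forms the third complementarity-determining region (CDR3), the loop that contacts the peptide. TRBD1, TRBJ1 and TRBC1 form an upstream block and TRBD2, TRBJ2 and TRBC2 a downstream block, so that TRBD1 can be joined to either J cluster while TRBD2 normally reaches TRBJ2 alone. The C region is added by splicing of the transcript and not by recombination.

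The germline segments of the cluster are shown first, since usage, CDR3 length and J-encoded residues all rest on them. They were read from chromosome 6 of GRCm38, plus strand, at the GENCODE M21 positions. Capitals mark the bases that belong to the CDR3, up to the codon of its last phenylalanine, and lower case the framework 4 part. TRBJ2-6 has no such codon, and its border was set at the same 28 bases from the end as in the other segments.
TRBJ2-1 (chr6:41542754-41542803): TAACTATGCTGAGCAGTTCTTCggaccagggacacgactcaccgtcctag
TRBJ2-2 (chr6:41542957-41543007): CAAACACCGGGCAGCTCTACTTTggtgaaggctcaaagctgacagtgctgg
TRBJ2-3 (chr6:41543223-41543271): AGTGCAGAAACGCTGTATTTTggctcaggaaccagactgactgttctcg
TRBJ2-4 (chr6:41543362-41543410): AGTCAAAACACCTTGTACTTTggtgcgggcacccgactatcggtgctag
TRBJ2-5 (chr6:41543453-41543501): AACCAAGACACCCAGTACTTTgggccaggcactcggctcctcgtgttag
TRBJ2-6 (chr6:41543598-41543645): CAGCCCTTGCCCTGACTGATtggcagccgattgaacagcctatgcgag
TRBJ2-7 (chr6:41543810-41543856): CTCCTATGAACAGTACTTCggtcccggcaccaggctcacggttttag

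The 7 segments lie between TRBD2, which ends 577 bases before TRBJ2-1, and TRBC2, which starts 2873 bases after TRBJ2-7. TRBJ2-2 holds the longest CDR3 part, 23 bases, and TRBJ2-7 the shortest, 19 bases. TRBJ2-1 holds 22 bases, and TRBJ2-3, TRBJ2-4 and TRBJ2-5 hold 21 each. TRBJ2-6 is annotated as a pseudogene. It lacks the phenylalanine and glycine codons at the border of the CDR3 that the other 6 carry, and the bases that follow it are CT where the other 6 are followed by GT, the usual start of an intron.

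The recombination signals of the most used segment, of the least used one and of the pseudogene are shown for comparison, with the nonamer and the heptamer in capitals and the 12-base spacer in lower case.
TRBJ2-7 signal (chr6:41543782-41543809): GGTTTGTGTgtggggttgagcCTCTGTG
TRBJ2-2 signal (chr6:41542929-41542956): GGTTTGTGCcagcatttccagGACTGTG
TRBJ2-6 signal (chr6:41543570-41543597): GGTTTCTCTtgggagtcacagGGTTGTG

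Set beside the consensus letters in the same orientation, heptamer CACTGTG and nonamer GGTTTTTGT, the heptamer of TRBJ2-7 matched at 6 of 7 bases and its nonamer at 8 of 9. For TRBJ2-2 the matches were 6 of 7 and 7 of 9, and for TRBJ2-6 they were 4 of 7 and 7 of 9. The lowest nonamer match of the cluster was that of TRBJ2-1, 4 of 9 bases. All 7 heptamers ended in TGTG.

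The D segments that can be joined to TRBJ2 are printed because a 5-base core, in capitals, tells them apart.
TRBD1 (chr6:41533201-41533212): ggGACAGggggc
TRBD2 (chr6:41542163-41542176): ggGACTGggggggc

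The WT contigs rested on 26700294 reads and 80347 unique molecular identifiers (UMIs), and the Btla-/- contigs on 22026825 reads and 75456 UMIs. In the WT library the median TRBJ2 contig had 14 UMIs (quartiles 8 and 22) and the median TRBJ1 contig 12 (7 and 20). In the Btla-/- library these medians were 11 (6 and 18) and 9 (6 and 16). In both libraries TRBJ2-1 contigs had the highest median of the segments, 16 UMIs in WT and 12 in Btla-/-, and TRBJ2-2 contigs were at the low end, with 11 and 10. At least 3 UMIs stood behind 98.5% of WT and 97.9% of Btla-/- TRBJ2 contigs. Both libraries held 30 cell barcodes in common, which carried 17 WT and 23 Btla-/- TRBJ2 chains, and none of these barcodes had a TRBJ2 CDR3 in common. Only TCR transcripts were sequenced, so the CD4 SP label and the Btla genotype could not be checked from expression. No TCR gamma or delta contig was listed. The libraries were made with a TCR amplification kit, and whether it captures gamma or delta transcripts was not examined. The absence of such contigs therefore does not show that gamma delta T cells were absent.

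TRBJ2 segments were carried by 60.2% of WT TRB chains (58.7 to 61.7%) and by 59.9% of Btla-/- TRB chains (58.5 to 61.2%). The Btla-/- share was lower by 0.306 percentage points, with an interval of the difference, Btla-/- minus WT, from -2.30 to 1.70. TRBJ2-7 was the most used segment of the cluster, on 659 WT chains, or 15.9% of all TRB chains (14.8 to 17.1%), and on 768 Btla-/- chains, or 14.8% (13.9 to 15.8%). TRBJ2-5 followed with 11.1% in WT (10.1 to 12.1%) and 11.2% in Btla-/- (10.3 to 12.1%). TRBJ2-1 was used by 10.4% of WT and 9.90% of Btla-/- chains. TRBJ2-3 was used by 8.74% and 9.23%, and TRBJ2-4 by 8.60% and 8.65%. TRBJ2-2 was the least used of the 6 segments with chains, at 5.43% in WT (4.76 to 6.17%) and 6.08% in Btla-/- (5.44 to 6.77%).

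The order of the 6 segments was the same in both libraries. The intervals of TRBJ2-7 and TRBJ2-5 did not overlap in either library, nor did those of TRBJ2-4 and TRBJ2-2, while the other neighbours in the order, TRBJ2-5, TRBJ2-1, TRBJ2-3 and TRBJ2-4, overlapped pairwise. The order did not follow the order along the chromosome: the segment nearest to TRBD2, TRBJ2-1, was used less than TRBJ2-7 and TRBJ2-5, the next one, TRBJ2-2, was used least, and the one nearest to TRBC2, TRBJ2-7, was used most. Within the cluster TRBJ2-7 made up 26.4% of WT and 24.8% of Btla-/- TRBJ2 chains, and TRBJ2-2 made up 9.03% and 10.2%. No chain carried TRBJ2-6. The 0 of 4141 WT chains allow a share of up to 0.0724%, and the 0 of 5181 Btla-/- chains one of up to 0.0579%. The tables hold productive chains alone, so a joint to TRBJ2-6 that gave no productive chain would not be listed.

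**Figure D1:**
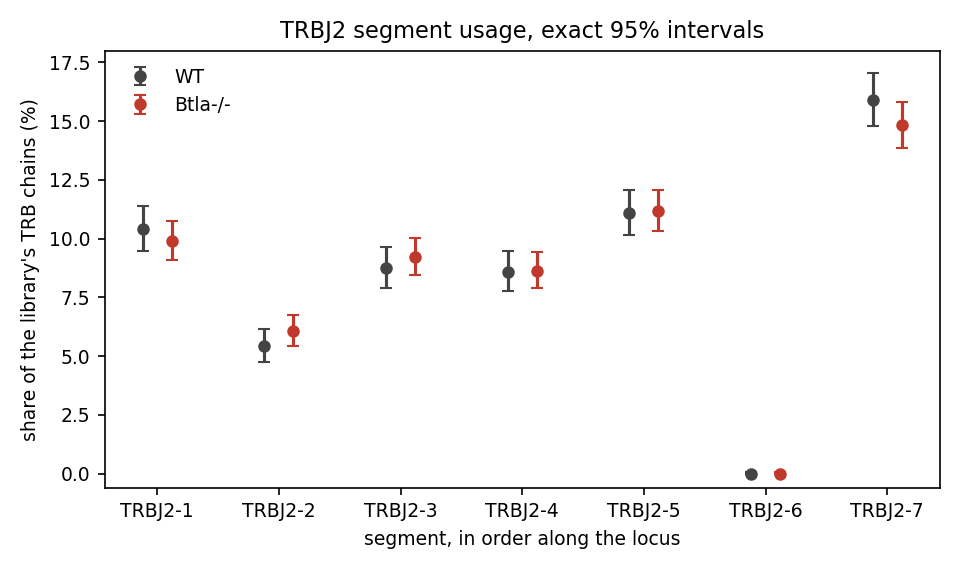
Share of all TRB chains of a library (y axis, %) that carried each TRBJ2 segment (x axis, in order along the locus), with exact 95% intervals as bars and 1 point per library. TRBJ2-7 stands above the other segments at 15.9% in WT and 14.8% in Btla-/-, TRBJ2-6 is at 0, and the points of the 2 libraries overlap for each segment.

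The intervals of the 2 libraries overlapped for each of the 6 used segments, so 0 of 6 stood apart. Of the 53 TRAJ and TRBJ segments that reached 1% of their chains in either library, 3 stood apart, or 5.66%. The widest difference was that of TRBJ2-7, which was lower in Btla-/- by 1.09 percentage points (Btla-/- minus WT, -2.57 to 0.379). For TRBJ2-2 the difference was 0.646 percentage points in the other direction (-0.312 to 1.59).

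The constant region call followed the J cluster without exception. All 2490 WT TRBJ2 chains with a C call and all 3099 Btla-/- ones were called TRBC2. The lower bounds of both shares of 100% were 99.9%. The 0 TRBC1 calls among 2492 WT and 3102 Btla-/- TRBJ2 chains allow shares of up to 0.120% and 0.0967%. A C call was missing on 2 WT and 3 Btla-/- TRBJ2 chains. Of the TRBJ1 chains, 1642 in WT and 2052 in Btla-/- were called TRBC1, none was called TRBC2, and 7 and 27 had no call. TRBC1 and TRBC2 code for nearly identical constant domains. The calls were used as deposited, and the bases of the constant region were not analysed here.

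A D segment was called on 615 WT and 735 Btla-/- TRBJ2 chains, and 75.3% and 76.3% of the TRBJ2 chains had no D call. Among the called chains both D segments were frequent, with TRBD2 called somewhat less often than TRBD1 in both libraries. TRBD2 was called on 278 of 615 in WT, or 45.2% (41.2 to 49.2%), and on 362 of 735 in Btla-/-, or 49.3% (45.6 to 52.9%). The TRBJ1 chains differed from this, with TRBD2 on 3 of 358 called chains in WT, or 0.838% (0.173 to 2.43%), and on 1 of 445 in Btla-/-, or 0.225% (0.00569 to 1.25%). Read from the D side, 98.9% of WT and 99.7% of Btla-/- chains with TRBD2 carried a TRBJ2 segment, against 48.7% and 45.7% of chains with TRBD1. The few chains with both TRBD2 and TRBJ1 calls were not examined further.

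The D cores were also counted without use of the deposited D call. The letters GACTG, the core of TRBD2, stood somewhere in the CDR3 of 23.8% of WT TRBJ2 chains (22.2 to 25.6%) and 24.2% of Btla-/- ones (22.7 to 25.8%), but in 0.485% and 0.241% of TRBJ1 chains. GACAG, the core of TRBD1, stood in 17.5% and 17.8% of TRBJ2 chains and in 38.0% and 37.5% of TRBJ1 chains. The letters were sought on the coding strand alone, anywhere in the CDR3, and a match is not proof of a D segment. Among the TRBJ2 chains with no D call, GACTG was found in 18.2% in WT and 18.5% in Btla-/-, and GACAG in 12.3% and 13.1%. By cores TRBD2 was thus ahead of TRBD1 on TRBJ2 chains, while by calls it was behind.

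The TRBD2 share of the deposited D calls varied along the cluster. These calls and the cores did not always match. GACAG stood in 436 WT TRBJ2 chains, 230 of them without a D call, while TRBD1 was called on 337. In Btla-/- these counts were 552, 309 and 373, so some TRBD1 calls lacked the TRBD1 core in both libraries. Cores were not counted by segment, so the shares by segment rest on the calls alone. The TRBD2 share was highest for TRBJ2-4, with 46 of 77 WT calls, or 59.7% (47.9 to 70.8%), and 50 of 86 Btla-/- calls, or 58.1% (47.0 to 68.7%). It was lowest for TRBJ2-2, with 15 of 52 in WT, or 28.8% (17.1 to 43.1%), and 27 of 70 in Btla-/-, or 38.6% (27.2 to 51.0%). The intervals of these segments were apart in WT and overlapped in Btla-/-. TRBJ2-7, the most used segment, was also below the middle in both libraries, with 39.3% and 42.1%. TRBJ2-1 gave 54.5% and 50.4%, and TRBJ2-5 gave 50.5% and 51.7%. TRBJ2-3 gave 37.6% in WT (27.8 to 48.3%) and 56.3% in Btla-/- (46.9 to 65.4%), the widest gap between the libraries, with overlapping intervals.

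**Figure D2:**
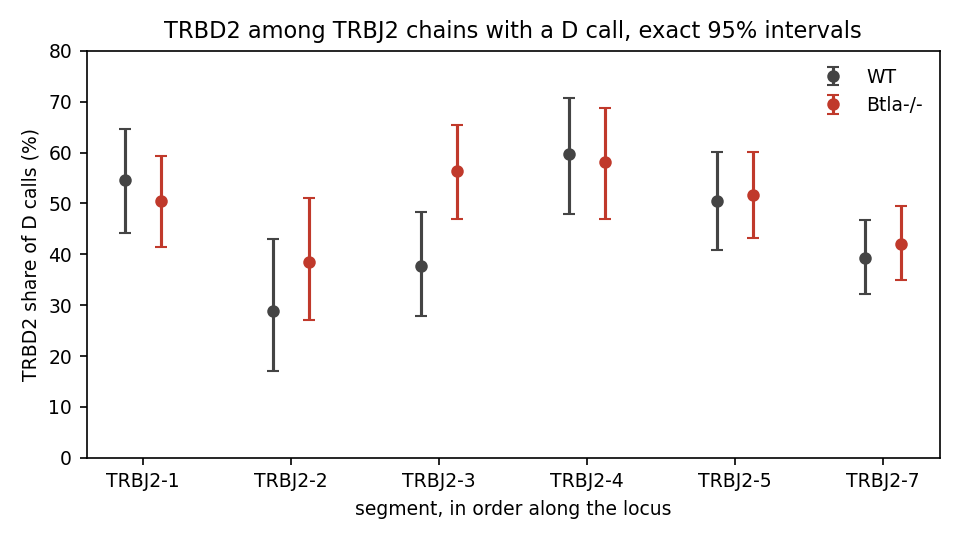
TRBD2 calls as a share of all D calls (y axis, %) on chains of each TRBJ2 segment (x axis, in order along the locus), with exact 95% intervals as bars and 1 point per library. TRBJ2-2 is lowest, at 28.8% in WT and 38.6% in Btla-/-, TRBJ2-4 is highest at 59.7% and 58.1%, and the intervals of the 2 libraries overlap for each segment.

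Trimming of the J end was measured as the number of germline bases missing from the 5′ end of the segment, reading the CDR3 from its 3′ end until the first base that differed from the germline. An added base or a D base that happens to equal the germline base is counted as kept. TRBJ2 chains had lost 2.70 bases on average in WT (SD 2.49 over chains) and 2.68 in Btla-/- (SD 2.48), and 28.2% of chains in each library had lost none. The framework 4 bases downstream of the CDR3 equalled the germline in all 2492 WT and all 3102 Btla-/- chains.

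The segments differed widely in how much was removed, and the libraries gave nearly the same profile for each. TRBJ2-3 was the least trimmed, with an average of 1.29 bases lost in WT and 1.27 in Btla-/- and an intact end on 50.3% (45.0 to 55.5%) and 50.0% (45.4 to 54.6%) of chains. TRBJ2-4 came next, intact on 41.6% and 44.0% of chains. TRBJ2-2 was intact on 28% and 27.9%. TRBJ2-7 was intact on 21.2% in WT (18.2 to 24.6%) and 22.7% in Btla-/- (19.7 to 25.8%), and TRBJ2-5 on 20.7% and 19.8%. TRBJ2-1 had the fewest intact ends, 17.4% in WT (13.9 to 21.3%) and 12.3% in Btla-/- (9.57 to 15.4%).

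The profile of TRBJ2-7 was not a steady fall from 0 bases. Its chains most often had an intact end or had lost 4 bases, 20.2% of chains in WT and 21.6% in Btla-/-, and the loss of exactly 1 base was rare, at 2.43% and 2.34%. A further rise stood at 7 bases, with 14.3% and 14.6%, and TRBJ2-7 had the highest average loss of the cluster, 3.52 bases in WT and 3.70 in Btla-/-. TRBJ2-5 had similar rises at 2 bases, with 19.8% and 21.0%, and at 6 bases, with 14.8% and 12.1%. For TRBJ2-1 the most frequent loss apart from 0 bases was 3 bases, in 16.9% of WT and 21.6% of Btla-/- chains. TRBJ2-7 starts with C, the last base of both D segments. At the rises at 7 bases in TRBJ2-7 and 6 bases in TRBJ2-5 the first kept base is a G. D bases that equal such J bases are counted as kept, and their part in these profiles was not tested.

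**Figure D3:**
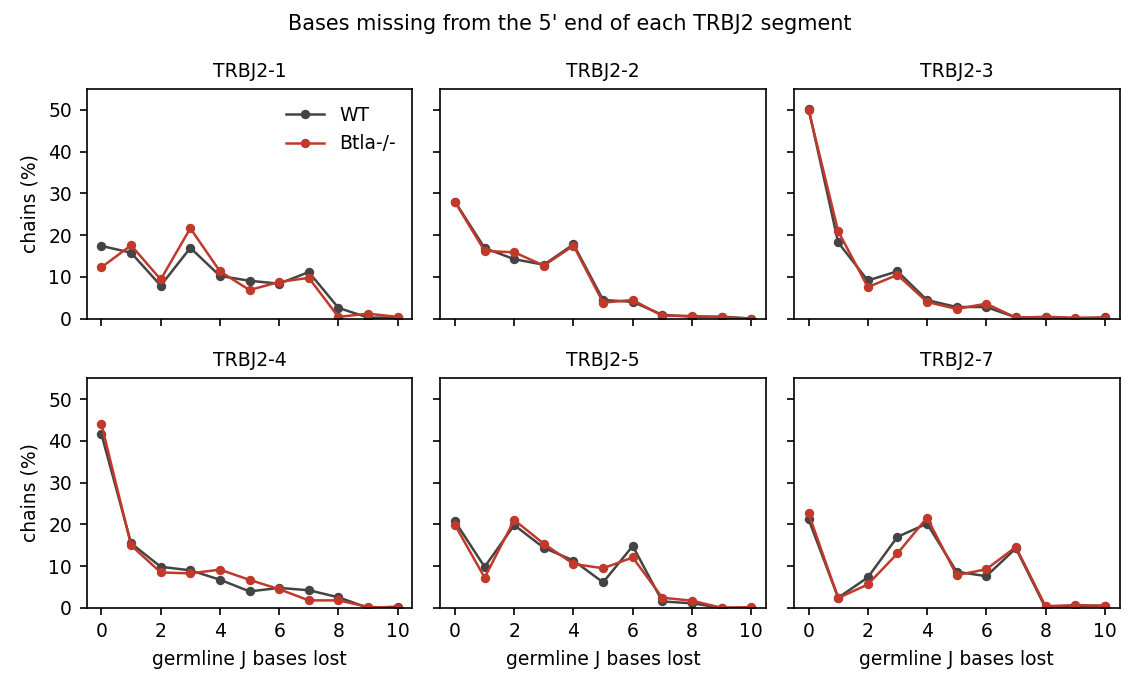
Share of the chains of each used TRBJ2 segment (y axis, %) that had lost a given number of germline bases from the 5′ end of the segment (x axis, 0 to 10 bases), 1 panel per segment and 1 line per library. The WT and Btla-/- lines run close together, TRBJ2-3 starts at 50.3% and 50.0% with no base lost, and TRBJ2-7 has rises at 4 and 7 bases.

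The average TRBJ2 CDR3 was 14.3 residues long in both libraries (SD 1.57 over chains in WT and 1.55 in Btla-/-), counted from the conserved cysteine to the phenylalanine, and 14 residues was the most frequent length. TRBJ1 chains averaged 14.1 residues in WT and 14.2 in Btla-/-, so that TRBJ2 CDR3s were longer by 0.119 residues in WT (SE 0.0471) and by 0.173 in Btla-/- (SE 0.0423), errors that cover the spread over chains alone. By segment the longest CDR3s were those of TRBJ2-2, with 15.0 residues in each library, and TRBJ2-3, with 14.9 in each. TRBJ2-4 averaged 14.6 in WT and 14.5 in Btla-/-, TRBJ2-1 14.5 and 14.6, and TRBJ2-5 14.2 and 14.3. TRBJ2-7 had the shortest, with 13.4 residues in WT (SD 1.44) and 13.5 in Btla-/- (SD 1.52). The difference between the libraries, Btla-/- minus WT, was 0.0786 residues over all TRBJ2 chains (-0.00382 to 0.161).

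The spread between segments lay almost entirely in the J-encoded part. TRBJ2-2 CDR3s kept 20.8 germline J bases in WT and 20.9 in Btla-/-, while TRBJ2-7 CDR3s kept 15.5 and 15.3, a gap of 5.37 and 5.56 bases. The remaining bases, from the V and D segments and from added bases, averaged 24.1 to 25.0 per CDR3 over the 6 segments in WT and 24.2 to 25.1 in Btla-/-. They were slightly fewer in TRBJ2-2 than in TRBJ2-7 CDR3s, by 0.659 bases in WT and 0.951 bases in Btla-/-. The whole CDR3 differed by 4.71 and 4.61 bases between these segments.

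**Figure D4:**
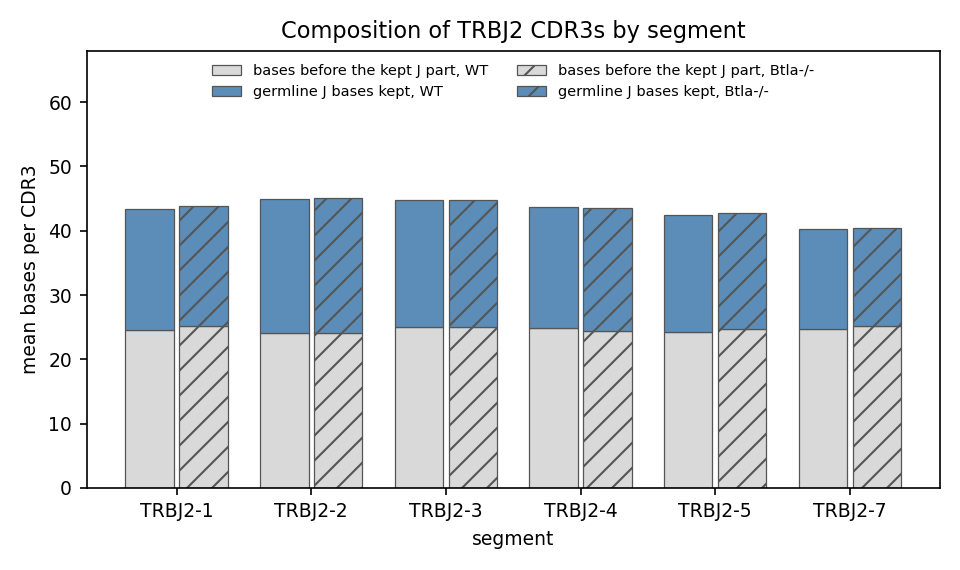
Mean number of bases per CDR3 (y axis) for each used TRBJ2 segment (x axis), split into the germline J bases that were kept (blue) and all bases before them (grey), with plain bars for WT and hatched bars for Btla-/-. The grey parts are nearly level, between 24.1 and 25.1 bases, and the blue parts range from 15.3 bases for TRBJ2-7 to 20.9 for TRBJ2-2.

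The last 4 residues of the CDR3 were almost fixed by the segment. The fourth residue from the end is glutamate for TRBJ2-1 and TRBJ2-7, glutamine for TRBJ2-2 and threonine for TRBJ2-3, TRBJ2-4 and TRBJ2-5, and it was kept on 97.1 to 100% of chains. TRBJ2-1 chains ended in a pair of phenylalanines and all other used segments in tyrosine and phenylalanine. The fifth residue from the end was more open in TRBJ2-7, where the germline tyrosine was kept on 68.3% of WT and 65.2% of Btla-/- chains, than in TRBJ2-1, where the alanine was kept on 96.8% and 97.5%. At the sixth residue TRBJ2-3 kept its alanine on 89.5% of chains in each library, and TRBJ2-5 kept its glutamine on 64.7% and 64.1%.

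The outermost J-encoded residue was the most variable one. It is asparagine for TRBJ2-1, TRBJ2-2 and TRBJ2-5 and serine for TRBJ2-3, TRBJ2-4 and TRBJ2-7. TRBJ2-2 kept it on 59.1% of WT and 60.0% of Btla-/- chains and TRBJ2-3 on 50.6% and 50.2%. TRBJ2-4 kept it on 43.5% and 44.6%, TRBJ2-1 on 33.2% and 29.8%, TRBJ2-7 on 26.3% and 26.4%, and TRBJ2-5 on 20.9% (96 of 459) and 20% (116 of 580). Where another residue stood there, glycine was the most frequent one for all 6 segments in both libraries, as on 224 of 659 WT and 234 of 768 Btla-/- TRBJ2-7 chains. For TRBJ2-7 these were more chains than had kept the germline serine, 173 in WT and 203 in Btla-/-. Both D segments are rich in G and can encode glycine in each reading frame.

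All 19 TRBV subgroups were found with TRBJ2 segments, and of the 114 combinations of a subgroup with a used TRBJ2 segment, 2 were not seen in either library. The call TRBV12-2+TRBV13-2, which the annotation gives jointly, was treated as a separate subgroup. TRBV13 and TRBV12 gave the most TRBJ2 chains. TRBV13 held 12.5% of them in WT and 12.1% in Btla-/-, TRBV12 held 11.2% and 10.3%, and the joint call held 8.75% and 8.45%. TRBV13 and TRBV12 were also the leading subgroups of TRBJ1 chains, at 12.9% and 13.2% for TRBV13 and 11.9% and 11.8% for TRBV12. The joint call held 6.67% and 6.88% of TRBJ1 chains and was behind TRBV19 (8.85%) in WT.

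The TRBJ2 share was set out by TRBV subgroup for the 16 with at least 100 chains in each library. TRBV17 had the highest, 83 of 116 WT chains, or 71.6% (62.4 to 79.5%), and 96 of 138 Btla-/- chains, or 69.6% (61.2 to 77.1%). It was the only one of the 16 whose interval lay above the share of the whole library in both. Next by the share over the chains of both libraries pooled were the joint call TRBV12-2+TRBV13-2, with 66.5% in WT and 64.7% in Btla-/-, and TRBV15, with 63.2% and 66.8%. The lowest pooled shares were those of TRBV29, with 54.7% in WT (46.9 to 62.3%) and 46.3% in Btla-/- (39.6 to 53.0%), TRBV26, with 50.4% and 53.6%, and TRBV19, with 51.0% and 60.3%. Within a single library the order was not the same, since TRBV16 in WT (67.7%) and TRBV3 in Btla-/- (67.4%) lay above the joint call and TRBV15, and TRBV1 in Btla-/- (51.7%) lay below TRBV26 and TRBV19. No subgroup of the 16 had its whole interval below the library's share in both libraries. Of the 16, 5 were apart from the library's share in WT and 6 in Btla-/-, and in 0 of 16 were the intervals of the 2 libraries apart.

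Position along the locus was not an ordering of these shares. Over the 16 subgroups the TRBJ2 share and the start position of the subgroup's first gene had a Pearson r of -0.219 in WT and -0.167 in Btla-/-. Without TRBV31 the r was -0.314 in WT and -0.116 in Btla-/-. TRBV31, which lies behind TRBC2 in the opposite orientation and joins by inversion, had a TRBJ2 share of 59.9% in WT and 56.3% in Btla-/-, with intervals that held the library's share in both. The TRBJ2 shares of the 16 subgroups in WT and Btla-/- had an r of 0.607. These correlations are over subgroups, which are not independent replicates and share their libraries.

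**Figure D5:**
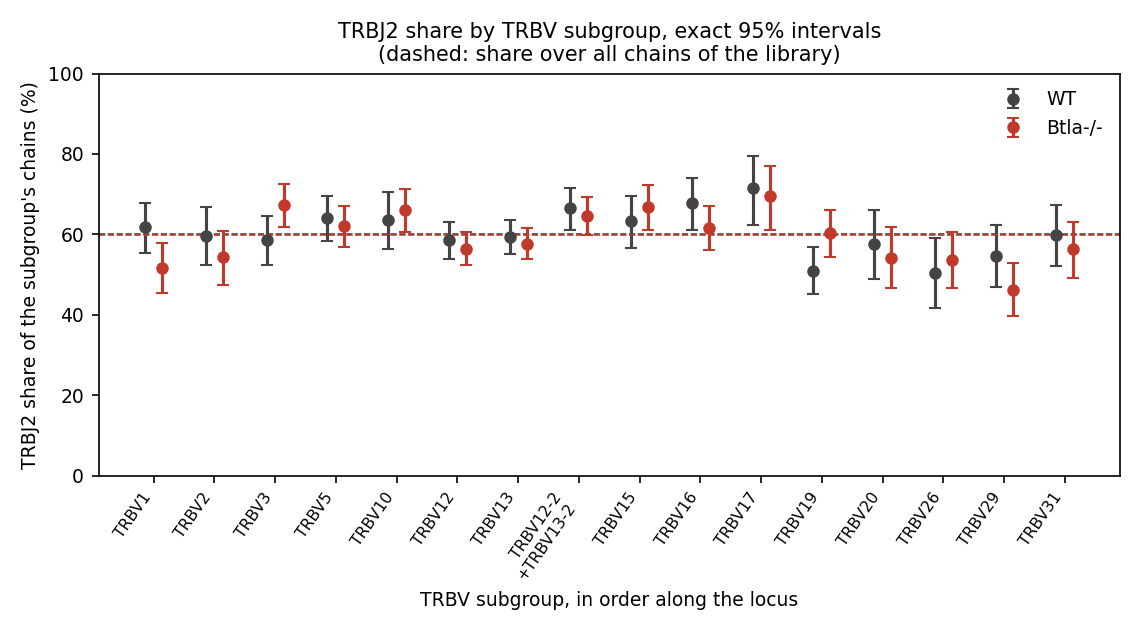
Share of the chains of a TRBV subgroup that carried a TRBJ2 segment (y axis, %) for the 16 subgroups with at least 100 chains in each library (x axis, in order along the locus), with exact 95% intervals, 1 point per library and the share over all chains as dashed lines. TRBV17 lies above the lines in both libraries, at 71.6% and 69.6%, and the intervals of the 2 libraries overlap for each subgroup.

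The 6 segments drew on similar TRBV partners. TRBV12 led among TRBJ2-1 chains in WT (13.5%) and TRBV13 in Btla-/- (13.1%). TRBV13 led among TRBJ2-2 chains in both (15.1% and 10.8%). For TRBJ2-3 the leading subgroup was TRBV13 in WT (15.2%) and TRBV12 in Btla-/- (12.1%), and for TRBJ2-4 and TRBJ2-7 it was TRBV12 in WT (10.7% and 12.9%) and TRBV13 in Btla-/- (13.2% and 13.7%). TRBJ2-5 was led by TRBV13 in WT (13.7%) and by the joint call in Btla-/- (11.2%). For each segment and library the interval of the leading subgroup overlapped that of the next one. On WT TRBJ2-7 chains TRBV12 had 85 chains and TRBV13 had 84. The lead also rests on keeping the joint call apart, since adding it to TRBV13 would put TRBV13 first for each segment in both libraries. The changes of leader are therefore not evidence of a difference between the libraries.

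By TRBV usage over the 19 subgroups, TRBJ2-7 was most like TRBJ2-3 in WT (r = 0.922) and, almost equally, TRBJ2-1 (0.922) and TRBJ2-3 (0.920) in Btla-/-. The least alike pairs were TRBJ2-1 with TRBJ2-2 in WT (0.692) and in Btla-/- (0.749). The same segment set against itself across the libraries gave r from 0.815 for TRBJ2-2 to 0.907 for TRBJ2-7, a range that overlaps the one between different segments of 1 library. All of these values share the overall TRBV usage of their libraries.

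Of the 96 combinations of a TRBV subgroup and a TRBJ2 segment with at least 20 chains in both libraries together, 2 had intervals apart between the libraries. Over all TRBV and TRBJ combinations of that size 3 of 174 were apart, or 1.72%. These 2 were named after their values were seen. TRBV1 with TRBJ2-7 was found on 42 WT and 21 Btla-/- chains, 1.01% and 0.405% of TRB chains. TRBV10 with TRBJ2-3 was found on 9 WT and 41 Btla-/- chains, 0.217% and 0.791%. With any J segment, TRBV1 was on 246 of 4141 WT and 271 of 5181 Btla-/- chains, and TRBV10 on 190 and 307. The part of overall TRBV usage in these 2 combinations was not tested.

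A TCR alpha (TRA) chain was recovered in the cells of 43.3% of WT TRBJ2 chains (41.4 to 45.3%) and 37.4% of Btla-/- ones (35.7 to 39.1%). The TRBJ1 chains gave 44.0% and 35.7%. Among TRB chains of cells with a TRA chain the TRBJ2 share was 59.8% in WT (57.5 to 62.1%) and 61.0% in Btla-/- (58.8 to 63.2%), and in cells without one it was 60.4% and 59.2%. By segment, TRBJ2-2 chains were most often accompanied by a TRA chain, in 46.7% of WT (40.0 to 53.4%) and 42.5% of Btla-/- cases (37.0 to 48.2%), and TRBJ2-3 chains least often, in 40.1% and 33.7%, with overlapping intervals. Mean TRBJ2 CDR3 length was slightly lower in cells with a TRA chain than in cells without one. In WT it was 14.16 residues (14.07 to 14.26) with and 14.33 (14.25 to 14.41) without, with overlapping intervals. In Btla-/- it was 14.21 (14.12 to 14.30) and 14.41 (14.34 to 14.48). TRBJ1 chains were not compared in this way. Median UMIs of these TRBJ2 contigs were 13 with and 14 without a TRA chain in WT and 11 in both in Btla-/-. The part of TRA recovery in this length difference was not tested.

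TRA partners were compared in cells with exactly 1 TRB chain, where 1003 of 1676 WT and 1036 of 1670 Btla-/- TRA chains stood with a TRBJ2 chain. TRAV6 was most often paired with TRBJ2 in WT, on 17.1% of these TRA chains, followed by TRAV7 with 13.3% and TRAV12 with 10.8%. In Btla-/- TRAV7 led with 16.1%, followed by TRAV6 with 15.3% and TRAV13 with 11.4%. In neither library did TRBJ2-paired and TRBJ1-paired TRA chains stand apart for any of the 15 TRAV subgroups that reached 1%. The largest differences of the same direction in both libraries were those of TRAV4, with 6.78% beside TRBJ2 and 8.02% beside TRBJ1 in WT and 7.24% and 9.15% in Btla-/-, and of TRAV7, with 13.3% and 12.0% in WT and 16.1% and 13.4% in Btla-/-. Of 20 subgroups, 7 had the same direction in both libraries.

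The TRAJ segments of TRBJ2-paired TRA chains were grouped by their place along the alpha locus. TRAJ1 to TRAJ20, the segments nearest to the alpha constant region, were on 26.9% of them in WT (24.2 to 29.8%) and 35.7% in Btla-/- (32.8 to 38.7%), and TRAJ41 to TRAJ61 on 30.5% (27.7 to 33.5%) and 23.9% (21.4 to 26.7%). Both pairs of intervals were apart between the libraries. Those of TRAJ21 to TRAJ40 overlapped, with 42.6% in WT (39.5 to 45.7%) and 40.3% in Btla-/- (37.3 to 43.4%). For TRAJ1 to TRAJ20 the TRBJ1-paired TRA chains gave 27.0% in WT (23.7 to 30.6%) and 37.5% in Btla-/- (33.8 to 41.4%), also apart. For TRAJ41 to TRAJ61 they gave 30.0% (26.57 to 33.63%) and 23.2% (19.95 to 26.67%), and these intervals overlapped. The groups were not set out over all TRA chains of a library. The alpha chain of invariant natural killer T cells, TRAV11 with TRAJ18, stood beside TRBJ2 in 5 of 8 such WT cells and 5 of 9 such Btla-/- cells, and that of mucosal-associated invariant T cells, TRAV1 with TRAJ33, beside TRBJ2 in 2 WT cells and 1 Btla-/- cell. TRAV11 with TRAJ18 thus made up 0.499% of TRBJ2-paired TRA chains in WT and 0.483% in Btla-/-.

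A further TRB chain stood in some cells. Of the 132 WT cells with exactly 2 TRB chains, 49 carried TRBJ2 on both, 62 on 1 and 21 on neither, and of the 167 such Btla-/- cells 55, 77 and 35. These were 37.1% of the WT cells (28.9 to 46.0%) and 32.9% of the Btla-/- cells (25.9 to 40.6%) for TRBJ2 on both chains. Droplets with more than 1 cell were not removed.

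Most TRBJ2 chains were found once. The same V gene, J gene and CDR3 bases recurred on 159 of 2492 WT chains, or 6.38% (5.45 to 7.41%), and on 281 of 3102 Btla-/- chains, or 9.06% (8.07 to 10.1%). These intervals did not overlap, but they count each chain as independent. Recurring chains come in groups of at least 2, so the intervals are too narrow, and their separation is not evidence of a difference. The libraries also differed in the number of chains sampled, and its part in the gap between the shares was not tested. For TRBJ1 chains the shares were 7.40% (6.18 to 8.77%) and 8.13% (6.99 to 9.39%). The recurring TRBJ2 chains were 66 different ones in WT, of which 48 were in 2 cells and the largest was in 6, and 139 in Btla-/-, of which 136 were in 2 cells and the largest was in 3. Where at least 2 cells of such a group had a TRA chain, a TRA CDR3 was in common in 16 of 18 groups in WT and 24 of 32 in Btla-/-, and the other groups had a TRBJ2 chain in common with different TRA chains.

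The CDR3 amino acids of 69 TRBJ2 sequences occurred in both libraries, on 81 WT chains, or 3.25% (2.59 to 4.02%), and 77 Btla-/- chains, or 2.48% (1.96 to 3.09%). The TRBJ1 chains gave similar shares, 3.03% in WT and 2.4% in Btla-/-. TRBJ2-7 chains had the highest share of the segments, 4.55% in WT (3.09 to 6.44%) and 3.78% in Btla-/- (2.54 to 5.38%). Its intervals overlapped those of all other used segments in both libraries. The TRBJ2 chains with CDR3 amino acids in both libraries were shorter than the rest, with 13.4 residues in WT (SD 1.43) and 13.3 in Btla-/- (SD 1.50), against 14.3 and 14.4. They had lost 2.15 and 2.26 J bases on average, against 2.72 and 2.69, and held 21.8 and 21.7 bases before the kept J part, against 24.7 and 24.9. A D call was made on 14.8% and 13.0% of them and on 25.0% and 24.0% of the rest.

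At the level of bases, 3 of 5354 distinct TRBJ2 chains, defined by TRBV subgroup, J segment and CDR3 bases, were found in both libraries, each on 1 cell of each. Their CDR3s are printed because no other TRBJ2 chain had the same CDR3 bases in both libraries by this definition. The kept J bases are in capitals.
TRBV12-1 with TRBJ2-7: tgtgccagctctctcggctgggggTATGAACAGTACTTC
TRBV13 with TRBJ2-5: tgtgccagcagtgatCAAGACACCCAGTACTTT
TRBV2 with TRBJ2-5: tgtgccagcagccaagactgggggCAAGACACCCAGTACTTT

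The first had lost 4 of the 19 J bases of TRBJ2-7 in its CDR3, the most frequent loss of that segment apart from none, and rested on 8 WT and 9 Btla-/- UMIs. The second was 11 residues long, with 15 bases before the kept J part, and its V gene was called TRBV13-1 in WT and TRBV13-3 in Btla-/-, genes whose CDR3 ends are nearly the same. It rested on 29 and 9 UMIs. The third rested on 9 and 5 UMIs. Its D call was TRBD1 in both libraries, although its bases hold GACTG, the core of TRBD2, and not GACAG. None of the 3 was on the same barcode in both libraries.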

How the data were processed

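TCR contigs of 1 WT and 1 Btla-/- library of CD4 SP thymocytes were used. Per the labels and the study's methods, the authors assembled and annotated contigs with Cell Ranger 7.2.0 and a GRCm38 V(D)J reference, and deposited for each contig its count of reads and its count of UMIs, both raw. The deposited tables hold only productive, full-length contigs of called cells. 3 further deposited summary tables of the authors were not used.

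Every TRB contig counted as 1 chain, and cells with several chains were kept. V genes were grouped by subgroup number. Germline segments, TRBD positions and recombination signals were read from the GRCm38.p6 sequence and the GENCODE M21 annotation, which use the build of the reference named by the authors. Kept J bases were counted as the exact run of germline bases from the 3′ end of the CDR3. The counting was run on simulated joints in which the base before the cut never equalled the germline base. Matches of D or added bases to the germline were therefore not covered by it. Shares have exact (Clopper-Pearson) 95% intervals, means of CDR3 length have normal intervals from the SE over chains, and a count of 0 is given with the share that 3 counts would make. PCR reads are not independent molecules, and the intervals do not cover differences between mice or preparations. Intervals of the 2 libraries that did not overlap were called apart, and this was not used as a test.

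Named were all TRBJ2 segments, TRBC1, TRBC2, TRBD1 and TRBD2, the TRBV subgroups with the most TRBJ2 chains and, of those with at least 100 chains in each library, the 3 with the highest and the 3 with the lowest TRBJ2 share of the chains of both libraries pooled. For each library the 3 TRAV subgroups most often paired with TRBJ2 were named, together with the 2 that differed most from TRBJ1 pairing in a direction that both libraries had in common. The members and lists were chosen with earlier results of these data known. The alternatives tried were a minimum of 3 UMIs per contig, a restriction to cells with 1 TRA and 1 TRB chain, collapsing of repeated chains, removal of barcodes present in both libraries, the use of the most-read TRB contig of a cell alone, the joint TRBV call counted as TRBV13, and J runs with 1 mismatch allowed. Computations used Python 3.11.15, numpy 2.4.6, pandas 2.3.3 and scipy 1.17.1.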

Additional observations from a re-analysis of the deposited data

How the results depend on the processing

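Of 114 values recomputed under an alternative, 104 stayed inside the 95% interval of the value reported and 10 did not. With only cells of exactly 1 TRA and 1 TRB chain, the TRBJ2 share of Btla-/- TRB chains was 62.1%, the TRBJ2-2 share was 6.19% in WT and 7.64% in Btla-/-, the TRBJ2-3 share was 8.39% in Btla-/-, and the mean TRBJ2 CDR3 length was 14.2 residues in both libraries. TRBJ2-3 and TRBJ2-4 changed places under this alternative in both libraries, while TRBJ2-7 stayed the most and TRBJ2-2 the least used of the 6 under the 5 alternatives run on segments. This alternative keeps 1406 WT and 1466 Btla-/- TRB chains. Allowing 1 mismatch gave 18.4 kept J bases in WT and 18.5 in Btla-/-. Counting the joint call as TRBV13 made TRBV13 21.2% of WT and 20.5% of Btla-/- TRBJ2 chains. The cause of these shifts was not tested beyond what each alternative leaves out.

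No paired analysis was possible because each genotype had 1 library, and for the same reason no library was left out. D calls were made on 615 WT and 735 Btla-/- TRBJ2 chains, so the shares by D segment rest on 52 to 190 calls per segment and library.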
